A study of Mus musculus with 19 samples.

Results

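The MHC class I antigen presentation pathway was followed through 10 genes in the hippocampal CA1 region of young and old mice: the heavy chains H2-K1, H2-D1 and H2-T23, the light chain B2m, the peptide transporter subunits Tap1 and Tap2, the loading factor Tapbp, the immunoproteasome subunits Psmb8 and Psmb9, and the transcriptional regulator Nlrc5. They were chosen by name, by matching the 48709 Ensembl identifiers of the count files to mouse symbols, and all 10 were found and passed the filter on low counts that left 19286 genes for testing. Measured values had no part in the choice, although it was made with earlier results of these data known. A list of 59 further class I pathway genes, of which 51 passed the filter, was described beside them.

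MHC class I molecules display peptides from a cell's own proteins at its surface, where CD8 T cells and natural killer cells read them. The proteasome cuts the peptides, the TAP transporter moves them into the endoplasmic reticulum, tapasin (Tapbp) helps to load them, and a heavy chain carries them to the surface together with beta-2 microglobulin. Interferons raise the whole set, in part through NLRC5, and in the resting brain microglia and endothelial cells hold more of these transcripts than most neurons do, although some neurons make class I chains as well.

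The libraries came from male C57B/6J mice that had received lipid nanoparticles in the dorsal hippocampus. The young group (n = 6, 3 months of age) and the old control group (n = 6, 16.5 months) were given control oligonucleotides, and the old anti-miR-mix group (n = 7, 16.5 months) was given inhibitors of 3 microRNAs, miR-181a-5p and miR-146a-5p together with miR-148a-3p. Library titles carry the word anti-miR-mix in both control groups too, read here as the name of the experiment, and that young mice were given control oligonucleotides is taken from the study's methods. All 3 groups carried nanoparticles. The study asked whether age and the inhibitors change gene expression in this tissue, and the class I genes were compared between old control and young mice, between old anti-miR-mix and old control mice, and between old anti-miR-mix and young mice.

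Each library held 26653511 to 38908947 reads assigned to genes, and markers of CA1 pyramidal cells summed to 687 to 985 CPM (reads scaled to a common library size with edgeR's TMM factors), against 14.3 to 25.9 CPM for CA3 markers and 30.6 to 89.3 CPM for dentate granule cell markers. The libraries are numbered as separate samples, but nothing in the labels says that each came from its own mouse, so p-values measure the spread between these samples. Old control 5 and 6 were more alike than any other pair of a group, with a chi-square per degree of freedom of 2.18 against 6.10 to 35.9 in the other pairs, and results were also computed with both as 1 library. The authors' log2 table subtracts from each gene a multiple of an integer from 1 to 4 that is set per library, and these integers define 4 processing groups of unknown meaning. Processing group 3 holds 3 old anti-miR-mix libraries (3, 4 and 5) and 2 young libraries (3 and 4) but 0 old control libraries, so that for those libraries processing and treatment cannot be told apart.

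The mature sequences of the inhibited microRNAs are shown first because the inhibitors define the treated group, with the seed (bases 2 to 8 from the 5′ end) in capitals. A messenger RNA library does not measure mature microRNAs, so their loss could not be checked in these samples.
miR-146a-5p: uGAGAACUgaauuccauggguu
miR-148a-3p: uCAGUGCAcuacagaacuuugu
miR-181a-5p: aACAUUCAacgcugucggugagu

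The 3′ untranslated regions of the members were searched for the 7 bases that pair with each seed, AGTTCTC for miR-146a-5p, TGCACTG for miR-148a-3p and TGAATGT for miR-181a-5p. H2-K1 and H2-D1 each held a match to all 3 microRNAs, which 260 of the 15351 tested genes with an annotated 3′ untranslated region (1.69%) did. Tapbp and Nlrc5 held a match to miR-146a-5p, as did 13.4% of these genes, and the other 6 members held none, as did 63.3%. The matches of H2-K1 and H2-D1 to miR-146a-5p and miR-181a-5p are printed because these 2 members hold a match to all 3 microRNAs, and the 10 bases before each printed match are the same in both genes. They are shown with the 7 matching bases in capitals and the transcript strand shown 5′ to 3′. In H2-D1 the matches were in the 3′ untranslated region of 1 of 3 annotated transcripts, and in H2-K1 in 4 of 6.
H2-K1, miR-146a-5p match, chr17:33996394-33996400, minus strand: cagagccctcAGTTCTCtttagtc
H2-D1, miR-146a-5p match, chr17:35266942-35266948, plus strand: cagagccctcAGTTCTCtttacac
H2-K1, miR-181a-5p match, chr17:33996163-33996169, minus strand: aataataattTGAATGTaaccttg
H2-D1, miR-181a-5p match, chr17:35267172-35267178, plus strand: aataataattTGAATGTgggtggc

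Promoters of class I genes are known to bind NF-kB and interferon regulatory factors. Stretches with a match to either pattern are printed for H2-K1, H2-D1 and B2m because the members varied together among the libraries. Both strands of the 250 bases before each RefSeq start were searched for 8 of the 10 members, and Tap2 and Nlrc5 were not searched. The NF-kB pattern (GGGA, any base, T, any base, CCC) was held by 0.94% of 32851 promoters, and AANNGAAA, the pattern for interferon regulatory factors, by 21.3%. The second pattern was written after these promoters had been read. The capitals mark the matches, of which the NF-kB ones overlap on both strands and the interferon regulatory factor ones of H2-K1 and H2-D1 lie on the opposite strand. The sequences are RefSeq's, and coordinates are on GRCm38.p6, the patch release of mm10.
H2-K1, chr17:34000430-34000458, minus strand: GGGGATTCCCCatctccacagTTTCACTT
H2-D1, chr17:35262923-35262951, plus strand: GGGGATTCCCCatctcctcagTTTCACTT
B2m, chr2:122147540-122147566, plus strand: aagaacatgaAACTGAAAatgggaaag

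Counted from 1 at the first printed base, the stretches of H2-K1 and H2-D1 differed by A18T alone. They end 83 bases before the nearer of 2 RefSeq starts of H2-K1 and 143 bases before the start of H2-D1. H2-T23 held 2 matches to the interferon regulatory factor pattern, and neither H2-T23 nor B2m held one to the NF-kB pattern. Psmb8 held a match to TTCNNNGAA, the pattern of interferon-gamma-activated sites, as did 7.02% of promoters, and Tap1, Psmb9 and Tapbp held none of these 3 patterns. A match is a string of letters and says nothing about binding in these mice.

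Per kilobase of exon, B2m was by far the most abundant member, with 182 ± 50.1 CPM per kb (mean ± SD, n = 19 libraries), followed by H2-D1 with 26.3 ± 8.49 and H2-K1 with 17.0 ± 5.73. Tapbp reached 7.91 ± 1.13 CPM per kb, H2-T23 3.16 ± 0.874, Tap2 2.23 ± 0.461 and Tap1 1.48 ± 0.487. Psmb8 (1.14 ± 0.388), Nlrc5 (0.747 ± 0.358) and Psmb9 (0.727 ± 0.272) were the lowest in this measure. Exon length here is that of all annotated exons of a gene merged over its transcripts, 3381 bases for Psmb8 and 3660 for Psmb9. It can exceed the length of the transcript that is present, so the order depends on the annotation. In this order Tap1 and Psmb8, and Nlrc5 and Psmb9, differed by less than the SD of either gene. Psmb9 was counted from 44 to 189 reads per library, the lowest counts among the members, whereas B2m had 2398 to 8693.

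The counts of some members cannot be assigned to 1 gene with certainty. H2-K1 shares 9.63% of its distinct 50-base stretches, the read length used, with other annotated genes, H2-D1 12.8% and H2-T23 14.5%, for the most part with other H2 genes and pseudogenes. Tapbp shares 23.2%, the largest part of any member, Psmb8 11.9% and Tap2 11.6%, in part with genes that overlap them. These are Gm19412 and Zbtb22 for Tapbp, Gm20496 for Psmb8, and Gm15821 and Gm20496 for Tap2. Tap1 and Psmb9 overlap head to head by 212 bases on chromosome 17, and the library kit does not keep strand, so reads from this overlap cannot be told apart. B2m shares none of these stretches, although it lies within the span of Patl2 on the other strand.

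In the old anti-miR-mix group all 10 members had higher mean levels than in old control mice, by a log2 fold change of 0.11 (Tap2) to 0.74 (Nlrc5), and all 10 had higher mean levels than in young mice, by 0.24 (Tapbp) to 0.79 (Tap1 and Psmb9). With the processing groups pooled, old control and young mice differed less, from -0.17 (H2-T23) to 0.41 (Tap2). Within processing groups they did not: the members' median difference in log2 CPM was 0.26 between old control and young libraries. Between old anti-miR-mix and old control libraries it was 0.21. With edgeR's quasi-likelihood test and Benjamini-Hochberg adjustment over 19286 genes, 4 members rose in old anti-miR-mix against young mice (B2m, Tap1, Tap2 and Psmb9), whereas 4.57% of all genes rose and 1.63% fell. None of the 10 passed the adjusted threshold of 0.05 between old anti-miR-mix and old control mice, where 0.669% of all genes rose, and none passed between old control and young mice, where 1.32% rose and 1.34% fell. The comparisons with young mice share the young libraries, and those with old anti-miR-mix mice share the old anti-miR-mix libraries, so that the 3 sets of values are not independent.

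Before adjustment, 8 of the 10 members had a higher level in old anti-miR-mix than in old control mice with an edgeR p under 0.05, beside 7.16% of all genes, and the adjusted p-values of all 10 ranged from 0.121 to 0.785. DESeq2 called 0 of the 10 in this comparison. The members' median log2 fold change was 0.48, beside 0.00 over all genes tested. In old anti-miR-mix against young mice, 9 of 10 were higher with an unadjusted p under 0.05, beside 11.3% of all genes, and the median was 0.56 beside 0.00. In old control against young mice 1 of 10, Tap2, had an unadjusted p under 0.05, beside 9.14% of all genes that were higher at that level, and the median was 0.04 beside 0.01. The members are not independent of each other, since on log2 CPM centred within each group the Pearson r of their 45 pairs over 19 libraries ran from 0.50 to 0.96 with a median of 0.79.

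**Figure D1:**
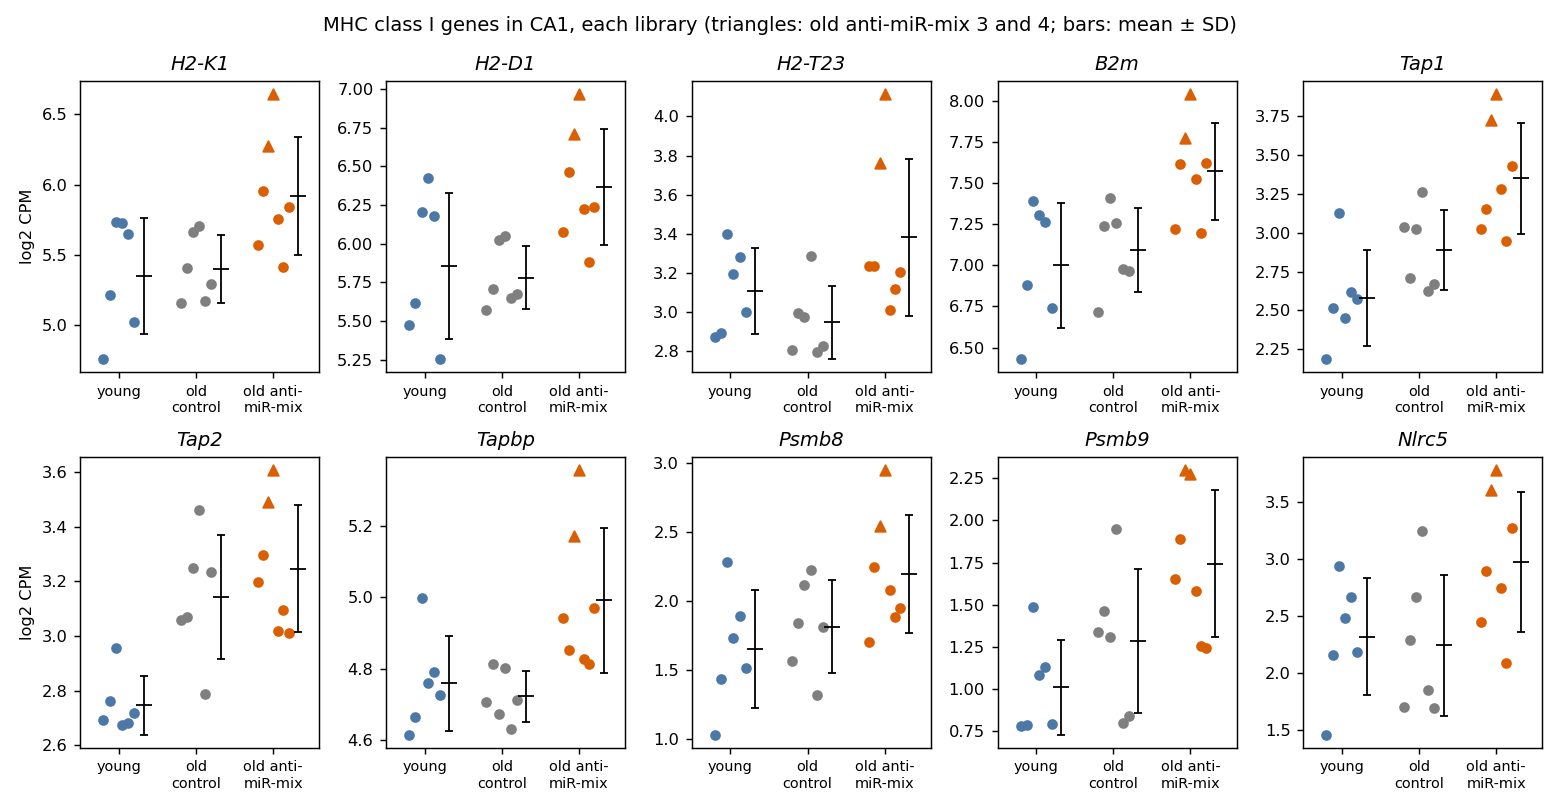
Log2 CPM (vertical axes) of the 10 class I genes in each of 19 libraries, by group on the horizontal axes, with mean ± SD beside each group and triangles for old anti-miR-mix 3 and 4. These 2 libraries are the 2 highest of all 19 for every gene shown, and the groups overlap for all genes except Tapbp against old control and Tap2 against young.

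The classical heavy chains H2-K1 and H2-D1, which present peptides to CD8 T cells, were at similar levels in young and old control mice when the processing groups were pooled. H2-K1 had a lowest, median and highest log2 CPM of 4.76, 5.43 and 5.74 in young, 5.16, 5.35 and 5.70 in old control and 5.41, 5.84 and 6.64 in old anti-miR-mix libraries. The young and old control libraries covered much the same range, and 5 of the 7 old anti-miR-mix libraries lay above every library of both other groups. Its log2 fold change between old anti-miR-mix and old control mice was 0.56 ± 0.18 (SE; 95% interval 0.18 to 0.94; edgeR adjusted p = 0.217), and against young mice it was 0.58 ± 0.18 (adjusted p = 0.0666). Between old control and young mice it was 0.01, with a 95% interval of -0.38 to 0.41. Within processing groups, the weighted difference in mean log2 CPM of H2-K1 was 0.24 between old control and young libraries. Between old anti-miR-mix and old control libraries it was 0.22.

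H2-D1 had a lowest, median and highest log2 CPM of 5.25, 5.90 and 6.42 in young, 5.57, 5.69 and 6.05 in old control and 5.88, 6.24 and 6.97 in old anti-miR-mix libraries. Here 6 of the 7 old anti-miR-mix libraries exceeded the highest old control library, while the young libraries spread over more than the old control range. The difference between old anti-miR-mix and old control mice was 0.62 ± 0.18 on the log2 scale (95% interval 0.24 to 0.99, edgeR adjusted p = 0.152), that against young mice 0.48 ± 0.18 (adjusted p = 0.124), and that between old control and young mice -0.13 (95% interval -0.52 to 0.26).

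H2-T23 encodes Qa-1, a nonclassical chain that engages inhibitory receptors of natural killer cells. Its log2 fold change was 0.48 ± 0.16 between old anti-miR-mix and old control mice (edgeR adjusted p = 0.208) and 0.32 ± 0.15 against young mice (adjusted p = 0.262), and old anti-miR-mix 3 and 4, at 3.76 and 4.11 log2 CPM, stood above the other 5 libraries of their group, which reached 3.24 at most. The reads counted for all 17 listed H2 heavy chain genes were also added up, so that their split among these 17 no longer matters. Any reads left uncounted because they fit several genes, or counted for H2 genes outside the list, are not included. The sum was 150 ± 35.6 CPM for young mice (SD, n = 6), 145 ± 20.7 CPM for old controls (n = 6) and 206 ± 54.7 CPM for old anti-miR-mix mice (n = 7). The log2 of this sum was 0.48 higher in old anti-miR-mix than in old control mice and -0.02 in old control against young mice, and H2-K1, H2-D1 and H2-T23 made up 69.0% to 79.0% of it. This sum was not tested.

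B2m, the light chain that every class I heavy chain needs to fold, had a lowest, median and highest log2 CPM of 6.43, 7.07 and 7.39 in young, 6.72, 7.11 and 7.41 in old control and 7.20, 7.62 and 8.04 in old anti-miR-mix libraries. Of the 7 old anti-miR-mix libraries, 5 lay above every old control library and every young library, and old anti-miR-mix 1 and 6 lay inside their range. B2m rose by a log2 fold change of 0.56 ± 0.15 (1.47-fold; 95% interval 0.24 to 0.87; edgeR adjusted p = 0.0317) in old anti-miR-mix against young mice, a call that was lost when only these 2 groups entered the fit (0.55, adjusted p = 0.0617). Against old control mice the difference was 0.49 ± 0.15 (1.40-fold; 95% interval 0.17 to 0.81; adjusted p = 0.189), and between old control and young mice 0.07 ± 0.16 (95% interval -0.26 to 0.40).

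Tap1 and Tap2 form the transporter that carries peptides into the endoplasmic reticulum. Tap1 had a lowest, median and highest log2 CPM of 2.19, 2.54 and 3.13 in young, 2.63, 2.87 and 3.27 in old control and 2.95, 3.28 and 3.89 in old anti-miR-mix libraries. The median of the old control libraries lay between those of the other groups and their range overlapped both. Young 3 was the only young library inside the old anti-miR-mix range. Tap1 rose by 0.79 ± 0.16 on the log2 scale (1.72-fold; edgeR adjusted p = 0.00429) in old anti-miR-mix against young mice, of which 0.49 ± 0.16 (adjusted p = 0.226) lay between old anti-miR-mix and old control mice and 0.30 ± 0.17 (adjusted p = 0.364) between old control and young mice.

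Tap2 had a lowest, median and highest log2 CPM of 2.67, 2.70 and 2.96 in young, 2.79, 3.15 and 3.46 in old control and 3.01, 3.20 and 3.61 in old anti-miR-mix libraries. All 7 old anti-miR-mix libraries lay above all 6 young libraries, a separation that 1 of 10 members and 1.79% of all genes showed in that direction, and all old control libraries except number 5 did as well. Tap2 rose by 0.52 ± 0.11 (1.43-fold; 95% interval 0.29 to 0.74; edgeR adjusted p = 0.00455) in old anti-miR-mix against young mice. Between old control and young mice the difference was 0.41 ± 0.11 (1.33-fold; 95% interval 0.18 to 0.64; adjusted p = 0.0515), just outside the threshold, and none of the 10 members had groups that did not overlap, beside 1.25% of all genes. Between old anti-miR-mix and old control mice it was 0.11 ± 0.11 (95% interval -0.11 to 0.33; adjusted p = 0.785). In this measure Tap2 was the member with the largest difference by age and the smallest by treatment, and the difference between these 2 contrasts was not tested.

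Tapbp, the bridge between the transporter and empty class I molecules, had a lowest, median and highest log2 CPM of 4.62, 4.74 and 5.00 in young, 4.63, 4.71 and 4.81 in old control and 4.81, 4.94 and 5.36 in old anti-miR-mix libraries. All 7 old anti-miR-mix libraries lay above all 6 old control libraries, although the closest pair stood at 4.814 and 4.813 log2 CPM, and Tapbp was the 1 of 10 members with this separation, which 0.425% of all genes showed. The difference was small, 0.28 ± 0.08 on the log2 scale (1.21-fold; 95% interval 0.12 to 0.44; edgeR adjusted p = 0.121). Old control and young mice differed by -0.04 ± 0.08 (95% interval -0.21 to 0.13).

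Psmb8 and Psmb9 replace the catalytic subunits Psmb5 and Psmb6 when proteasomes are built for antigen processing. Psmb9 had a lowest, median and highest log2 CPM of 0.78, 0.94 and 1.48 in young, 0.79, 1.32 and 1.95 in old control and 1.24, 1.65 and 2.30 in old anti-miR-mix libraries. Young 3 and old control 4 stood above the rest of their groups, and the groups overlapped. Psmb9 rose by 0.79 ± 0.21 (1.72-fold; edgeR adjusted p = 0.0256) in old anti-miR-mix against young mice, and the difference was 0.48 ± 0.20 against old control mice (adjusted p = 0.398) and 0.31 ± 0.22 between old control and young mice (adjusted p = 0.499). Psmb8 differed by 0.56 ± 0.21 (adjusted p = 0.123), 0.42 ± 0.21 (adjusted p = 0.482) and 0.13 ± 0.22 (adjusted p = 0.807) in the same order.

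The ratio of an immunoproteasome subunit to the constitutive subunit it replaces depends neither on depth nor on the scaling between libraries. As a percentage, the Psmb8 to Psmb5 count ratio was 17.7 ± 5.81 for young mice (SD, n = 6), 21.5 ± 6.96 for old controls (n = 6) and 27.5 ± 9.09 for old anti-miR-mix mice (n = 7). The Psmb9 to Psmb6 ratio was 3.42% ± 0.686, 4.14% ± 1.41 and 5.61% ± 1.73 in these groups, and the Psmb10 to Psmb7 ratio was 42.5% ± 2.23, 41.9% ± 2.37 and 44.9% ± 4.65. In 9 exact two-sided permutation tests of log2 ratios with Benjamini-Hochberg adjustment over the 9, the largest difference was that of Psmb9 to Psmb6 between old anti-miR-mix and young mice (0.68, p = 0.0111, adjusted p = 0.0997), followed by Psmb8 to Psmb5 (0.62, p = 0.0490, adjusted p = 0.220), and the other 7 had adjusted p-values of 0.316 to 0.656. No ratio passed the threshold after adjustment. Within processing groups, the Psmb8 to Psmb5 difference between old anti-miR-mix and old control mice went from 0.34 to -0.01, whereas the same ratio between old anti-miR-mix and young mice stayed at 0.56.

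**Figure D2:**
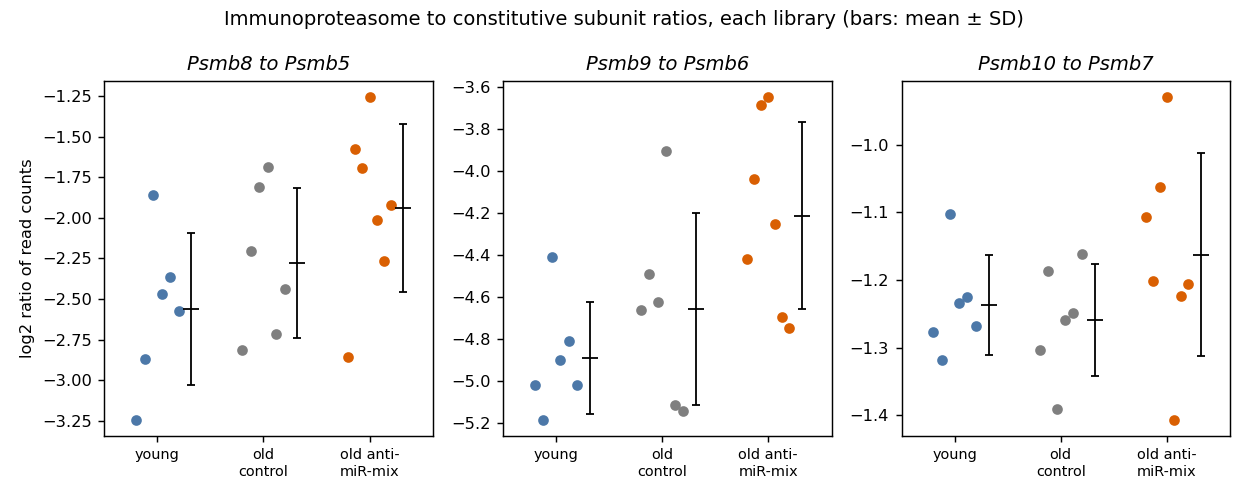
Log2 ratios of read counts (vertical axes) of Psmb8 to Psmb5, Psmb9 to Psmb6 and Psmb10 to Psmb7 in each library by group, with mean ± SD beside each group. Psmb8 to Psmb5 has a mean of -2.56 in young, -2.28 in old control and -1.94 in old anti-miR-mix libraries, Psmb10 to Psmb7 stays between -1.41 and -0.93, and the groups overlap in all 3 panels.

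Nlrc5, the transactivator of class I promoters, had the largest fold change by treatment and the widest spread. Its lowest, median and highest log2 CPM were 1.46, 2.34 and 2.94 in young, 1.70, 2.07 and 3.24 in old control and 2.09, 2.90 and 3.78 in old anti-miR-mix libraries. The groups overlapped over most of their range, and 3 of the 7 old anti-miR-mix libraries (3, 4 and 7) lay above the highest old control library, old control 4. The difference between old anti-miR-mix and old control mice was 0.74 ± 0.29 (95% interval 0.14 to 1.34; edgeR adjusted p = 0.341), that against young mice 0.70 ± 0.29 (adjusted p = 0.169) and that between old control and young mice -0.04 ± 0.31 (95% interval -0.67 to 0.60).

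**Figure D3:**
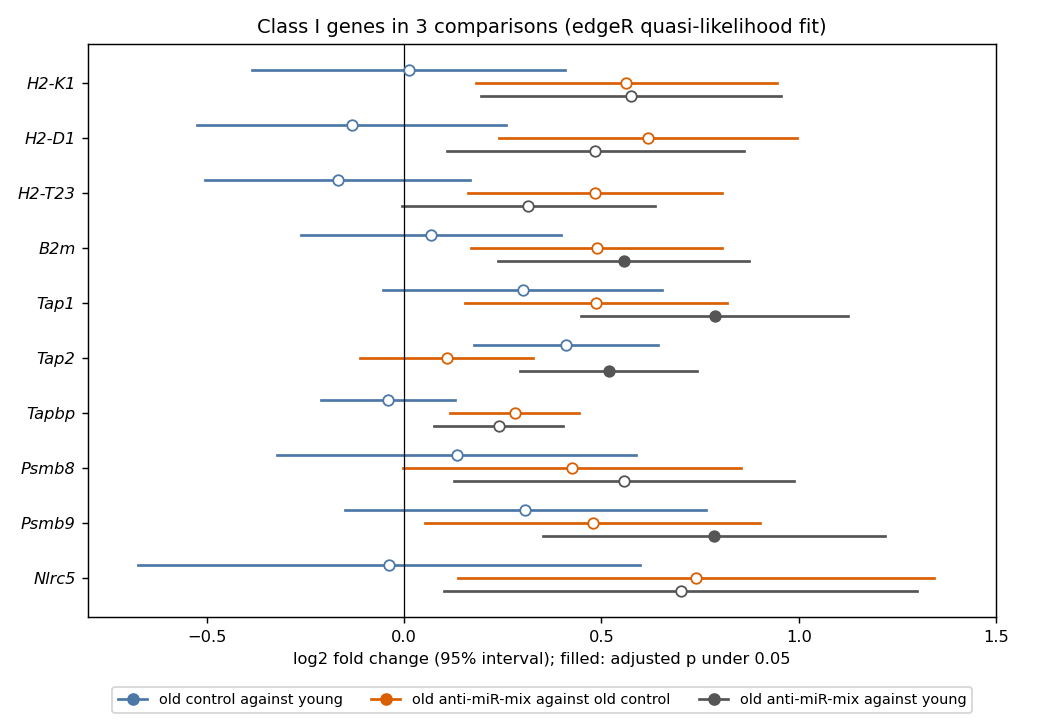
Log2 fold changes (horizontal axis) of the 10 class I genes with 95% intervals in 3 comparisons from the edgeR fit, filled where the adjusted p was under 0.05. The filled points are B2m (0.56), Tap1 (0.79), Tap2 (0.52) and Psmb9 (0.79) in old anti-miR-mix against young mice, and in old control against young mice Tap2 (0.41) alone has an interval that leaves out 0.

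The differences rested in part on 2 libraries. Old anti-miR-mix 4 was the highest of all 19 libraries for 9 members and old anti-miR-mix 3 for the other one, Psmb9, and both were in the top 2 for all 10. At the other end, young 1 was the lowest library for 7 of the 10. With old anti-miR-mix 3 and 4 left out, a step taken after their levels were seen, the members' median log2 fold change against old control mice went from 0.48 to 0.24 and 9 of 10 remained above 0, and against young mice it went from 0.56 to 0.33 with Tap1 (0.57, edgeR adjusted p = 0.0319) and Tap2 (0.38, adjusted p = 0.0337) as the 2 members called. Without them B2m had a log2 fold change of 0.40 against young mice (adjusted p = 0.157). With single libraries left out, Tap1 and Tap2 were called against young mice in all 19 fits. B2m and Psmb9 were not called without young 1, 2 or 6 or old anti-miR-mix 3 or 4, and B2m also not without old anti-miR-mix 2. Tapbp and Psmb8 were called without young 3, H2-K1 without old anti-miR-mix 1, and H2-K1 and Tapbp without old anti-miR-mix 6. Against old control mice none of the 10 was called in any of these 19 fits.

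Old anti-miR-mix 3 and 4 belong to processing group 3, which holds no old control library. Within the 3 processing groups that hold both, the difference in mean log2 CPM between old anti-miR-mix and old control libraries, weighted by library numbers, ran from -0.02 (Tap2) to 0.32 (H2-D1) with a median of 0.21 over the 10 members, against 0.10 to 0.73 and a median of 0.46 when pooled. B2m was 0.26 higher within groups against 0.48 pooled, H2-K1 0.22 against 0.52, and Nlrc5 0.27 against 0.73. With processing group as a factor in the edgeR fit, adjusted p-values of the 10 members in this comparison were 0.70 to 0.99. Old anti-miR-mix and young mice can be compared in all 4 processing groups, and there the within-group difference stayed near the pooled value, 0.21 (Tapbp) to 0.72 (Tap1) with a median of 0.50 against 0.56. By group the median was 0.73, 0.71 and 0.50 in groups 1, 2 and 3 with all 10 members above 0, but 0.17 in group 4, where 8 of 10 were above 0 and Nlrc5 was at -0.34, and the difference between the processing groups was not tested. These medians rest on few old anti-miR-mix and young libraries, 1 against 1 in group 1, 2 against 1 in group 2, 3 against 2 in group 3 and 1 against 2 in group 4. With the factor 5 members were called, H2-K1 (0.48, adjusted p = 0.0392) beside B2m, Tap1, Tap2 and Psmb9, and with all 5 libraries of processing group 3 left out 1 was, Tap1 (0.66, adjusted p = 0.0299). The share of all genes called with the factor in this comparison is not given here, so its 5 calls cannot be set against it.

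The sign of the difference between old control and young mice varied with the processing group. Within groups 1 and 2 all 10 members had higher means in old controls, with a median difference of 0.53 log2 CPM in both, whereas within group 4 the means of 8 of 10 were lower, with a median of -0.095. Weighted by library numbers over all 3, the difference ran from -0.07 (H2-T23) to 0.41 (Tap2), with 9 of 10 members above 0. Its median was 0.26, against 0.07 when pooled. In group 4 the old control libraries are old control 5 and 6, the pair most alike. Groups 1 and 2 each hold 1 young library, young 1 and young 2, so those differences rest on single libraries, and the difference between processing groups was not tested. Tap2 was higher in old control libraries in all 3, by 0.37, 0.59 and 0.31, and with processing group as a factor its difference was called (0.46, edgeR adjusted p = 0.0405), as it was without young 3, without old control 5, or without old anti-miR-mix 3, 4 or 5.

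**Figure D4:**
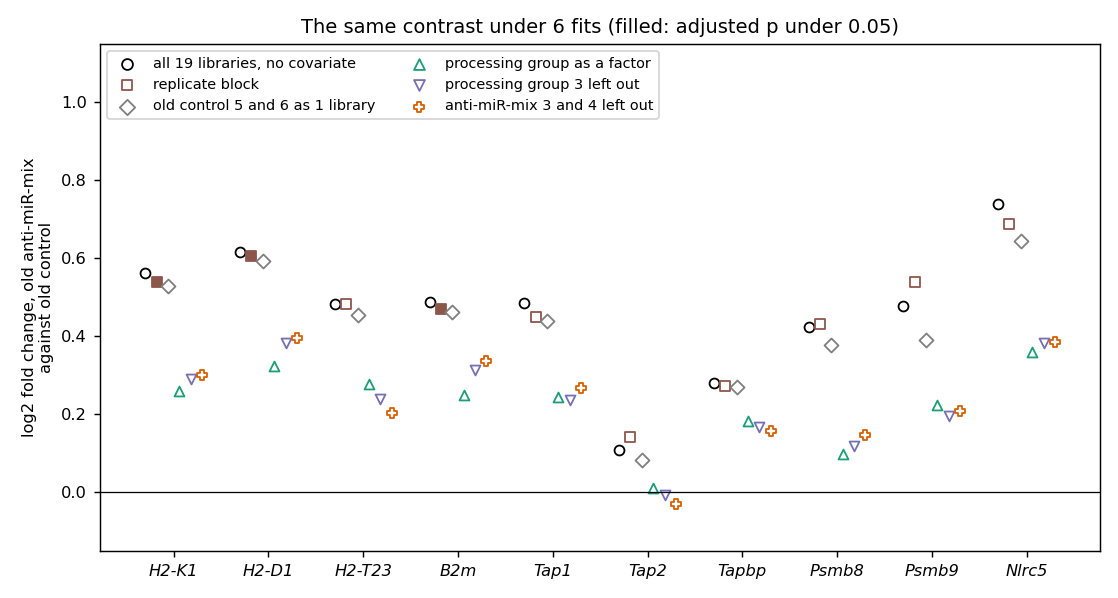
Log2 fold change (vertical axis) of each class I gene between old anti-miR-mix and old control mice under 6 fits, filled where the adjusted p was under 0.05. H2-K1, H2-D1 and B2m are filled with the replicate block alone, and the fits that take processing group 3 or old anti-miR-mix 3 and 4 into account lie lower for all 10 genes, with a median of 0.24 or 0.25 against 0.48 for the fit without covariate.

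Among the 51 tested genes of the wider class I pathway, 10 rose and 1 fell in old anti-miR-mix against young mice, 1 rose in old anti-miR-mix against old control mice, and 1 rose in old control against young mice, by the same edgeR test and beside the shares of all genes given above. The 6 largest increases against young mice were those of Pirb (1.45 ± 0.26 on the log2 scale, adjusted p = 0.00117), a receptor for class I molecules, H2-Q6 (1.22 ± 0.25), a nonclassical heavy chain, Irf8 (0.97 ± 0.15), a transcription factor of myeloid cells, Cd1d1 (0.88 ± 0.20), which presents lipids, Socs1 (0.72 ± 0.21), a brake on interferon signalling, and H2-T10 (0.68 ± 0.17), another nonclassical chain. H2-Q6 shares 35.0% and H2-T10 50.4% of their 50-base stretches with other genes, so their separate values are uncertain. H2-Q2 was the gene that fell, by 1.97 ± 0.56 (adjusted p = 0.0374), from 4 to 90 reads in young libraries to 0 to 34 in old anti-miR-mix libraries. The increases of Pirb, H2-Q6 and Irf8 were called under every alternative run, and that of Cd1d1 under all but the one without processing group 3. The calls of H2-T10, Socs1 and H2-Q2 were lost without single libraries, H2-T10 without young 4 (edgeR adjusted p = 0.0553), Socs1 without any 1 of the 6 young libraries, old control 5 or 6, or old anti-miR-mix 1, 3, 4 or 5 (0.0503 to 0.0953), and H2-Q2 without young 1, 3, 4, 5 or 6 or old anti-miR-mix 1, 3, 5, 6 or 7 (0.0542 to 0.108).

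Irf8 was the wider-list gene called by treatment, 0.74 ± 0.15 on the log2 scale (edgeR adjusted p = 0.0248). Its lowest, median and highest log2 CPM were 2.95, 3.11 and 3.18 in old control and 3.10, 4.00 and 4.16 in old anti-miR-mix libraries, and old anti-miR-mix 6 and 1 were the lowest of their group. The call was lost without old control 1, 2, 5 or 6 or without old anti-miR-mix 2, 3, 4 or 5 (edgeR adjusted p = 0.0607 to 0.0774), and with processing group as a factor the difference was 0.45 (adjusted p = 0.162). Pirb had the largest log2 fold change by treatment in the list, 1.04 ± 0.25 (edgeR adjusted p = 0.0583), and its 7 old anti-miR-mix libraries lay above all 6 old control libraries. This separation was shown by 1 of the 51 tested wider-list genes, beside 0.425% of all genes. Cd1d1 was the gene called by age, 1.08 ± 0.20 (edgeR adjusted p = 0.00526), a call that was lost with processing group 3 left out (1.01, adjusted p = 0.0622). It had 10 to 20 reads in young and 24 to 36 reads in old control libraries, with no overlap between them. By age 2 of the 51 tested wider-list genes, Cd1d1 and H2-T10, were higher without overlap, beside 1.25% of all genes. The wider-list genes of peptide loading and of the proteasome had small differences, the immunoproteasome subunit Psmb10 included. The 5 genes of peptide loading and trimming (Tapbpl, Calr, Canx, Pdia3, Erap1) had log2 fold changes of -0.06 to 0.21, the proteasome genes Psmb10, Psme1, Psme2, Psme3 and Pomp of -0.02 to 0.14, and the constitutive subunits Psmb5, Psmb6 and Psmb7 of -0.11 to 0.07 over the 3 comparisons, and edgeR and DESeq2 called 0 of these 13 in each, with an unadjusted edgeR p under 0.05 for 1 by age, 0 by treatment and 2 against young mice. Of the interferons themselves, Ifng and Ifnb1 had 0 to 3 reads in every library and were not tested.

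Markers of microglia also differed between the groups. All 10 microglial markers were measured, and by edgeR's adjusted p in old anti-miR-mix mice 5 of them rose against old control mice, among them Trem2 and C1qa, and 9 against young mice, while 1, Cx3cr1, rose in old control against young mice. DESeq2 called 6, 9 and 2 in the same order, and 8 of 10 had an unadjusted edgeR p under 0.05 by age. The 5 edgeR calls against old control mice were lost with processing group 3 left out, a smaller fit in which no gene was called in that comparison. Their summed level was 433 to 594 CPM in young, 557 to 699 CPM in old control and 676 to 927 CPM in old anti-miR-mix libraries, and the 4 highest libraries were old anti-miR-mix 2, 3, 4 and 5. In bulk tissue, more cells of a type and more RNA per cell cannot be told apart. None of the 10 markers was at 0 in any library. Old anti-miR-mix 2 and 5 had summed microglial levels of 922 and 921 CPM, close to those of old anti-miR-mix 3 and 4 (927 and 882 CPM), and B2m was at 7.62 and 7.53 log2 CPM in the former and at 7.78 and 8.04 in the latter. The part of the microglial markers in the class I differences was not tested.

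The 10 interferon response genes (Ifit1, Ifit3, Isg15, Oasl2, Irf7, Usp18, Bst2, Gbp2, Gbp3 and Iigp1) were all measured, and edgeR and DESeq2 called 0 of them in each comparison. The unadjusted edgeR p was under 0.05 for 3 (Oasl2, Irf7 and Usp18) between old anti-miR-mix and old control mice, for 1 (Bst2) against young mice and for 0 between old control and young mice. Their median log2 fold change was 0.63 between old anti-miR-mix and old control mice, 0.24 between old anti-miR-mix and young mice and -0.27 between old control and young mice. Their summed level ran from 49.9 to 158 CPM in young, 54.9 to 115 CPM in old control and 73.3 to 222 CPM in old anti-miR-mix libraries, with the highest in old anti-miR-mix 4 (222 CPM). Of 8 T cell markers 7 passed the filter, and their summed level was 1.22 to 3.69 CPM in young, 1.77 to 3.81 CPM in old control and 2.61 to 6.79 CPM in old anti-miR-mix libraries, again highest in old anti-miR-mix 4. Against young mice edgeR called 1 of the 7, Trac, which rose (0.73, edgeR adjusted p = 0.0314). DESeq2 called 2 there, 4 had an unadjusted edgeR p under 0.05, and the median log2 fold change of the 7 was 1.04. Between old anti-miR-mix and old control mice both tools called 0 of the T cell markers, 1 had an unadjusted edgeR p under 0.05, and the median was 0.72. Between old control and young mice the median of the T cell markers was 0.41. Cd3d, which was not tested, had 0 to 16 reads, and Cd3g and Cd8b1 were at 0 reads in some libraries. Summed endothelial markers were 196 to 226, 204 to 221 and 192 to 236 CPM in the 3 groups, and of 8 markers 1, Tie1, fell in old control against young mice (-0.31, edgeR adjusted p = 0.0350). The part of interferon, T cell and endothelial transcripts in the class I differences was not tested.

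Some markers of other cell types differed between groups as well. Of 6 oligodendrocyte markers 4 fell in old control against young mice by edgeR's adjusted p, Mog, Mag and Cnp among them, and DESeq2 also called 4. Between old anti-miR-mix and old control mice 0 of the 6 oligodendrocyte markers were called by edgeR or DESeq2, while each was higher with an unadjusted edgeR p under 0.05. Their summed level was 7090 to 11200 CPM in young, 6270 to 7450 CPM in old control and 6380 to 9410 CPM in old anti-miR-mix libraries. Against young mice, Gfap, an astrocyte marker, rose by 0.77 (edgeR adjusted p = 0.00124) and was the 1 of 6 astrocyte markers called, and Ighm, an immunoglobulin chain, rose by 0.80 (adjusted p = 0.00257) and was the 1 of 3 tested B and plasma cell markers called. Old anti-miR-mix 4, the highest library of its group for 9 class I members, was the lowest of 19 for the summed CA1 pyramidal (687 CPM) and pan-neuronal markers (7160 CPM). Old anti-miR-mix 3, the other library with high class I levels, ranked 6 from the highest of 19 for both sums (956 and 8110 CPM). The part of these markers in the class I differences was not tested.

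The genes whose levels followed the 10 members most closely, by the median Pearson r over the 19 libraries on log2 CPM centred within each group, were H2-Q4 (0.87), Syngr2 (0.86), AW112010 (0.85), Ifi30 (0.85) and Uba7 (0.85), out of 15950 genes with a mean of at least 20 reads. The median Spearman rho of the same genes ran from 0.79 to 0.87. These are descriptions over points that share libraries, depth and the high old anti-miR-mix 3 and 4, and H2-Q4 also shares sequence with the members. Syngr2, a vesicle membrane protein, rose by 0.43 (edgeR adjusted p = 0.0206) in old anti-miR-mix against old control mice, and Ifi30, a lysosomal thiol reductase, had a log2 fold change of 0.69 in that comparison (adjusted p = 0.182). The call of Syngr2 was lost with processing group 3 left out, a smaller fit in which no gene was called in that comparison.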

How the data were processed

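RNA of microdissected CA1 was sequenced as 50-base single-end reads in 19 libraries (6 young, 6 old control, 7 old anti-miR-mix). The count values are raw reads per Ensembl gene, deposited by the authors as 1 file per library, and the submitters' processing notes name FastQC 0.11.5, STAR 2.5.2b, featureCounts, Subread 1.5.1 and mm10. Options for strand and for reads that fit several genes are not given in the sources used here. The log2 values deposited by the authors equal, within 3.4e-08, log2 of CPM plus 1 over 18761 genes minus a gene-specific multiple of an integer from 1 to 4 per library. These integers are the processing groups, whose meaning is not given.

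Symbols came from GENCODE M21, which named 48349 of 48709 genes. Genes that reached 5 reads in 50% or more of the libraries were tested with edgeR 4.0.16 (TMM scaling, quasi-likelihood test, 3 groups in 1 fit, Benjamini-Hochberg adjustment, threshold 0.05) in R 4.3.3. This filter leaves out genes with few reads, so weak expression below it was not examined. Log2 CPM used a prior count of 2, SE was derived from the F statistic, and intervals are 95%. Ratios were tested by exact two-sided permutation. Alternatives were DESeq2 1.42.0, its size factors, limma 3.58.1 on the deposited log2 values, other filters, samples and covariates, and each library left out. The fits without processing group 3, without old anti-miR-mix 3 and 4, and with old control 5 and 6 merged together with the processing group factor were added after seeing the data. The steps were tested on simulated data. A further sequence is not reported here.

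The 10 members, the wider list and the marker lists were chosen with earlier results of these data known. Named from the wider list were genes past the threshold, at most the 6 with the largest fold change in each direction. The genes most alike were the 5 with the highest median Pearson r among genes averaging at least 20 reads. Counting error is small at 26653511 to 38908947 reads per library, except for genes with few reads.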

Additional observations from a re-analysis of the deposited data

Results flagged for a closer look

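Among 39 sets of group values checked for a sample far from the others, 1 stood out. Tap2 in young 3 was at 2.96 log2 CPM, and its gap to the next young library made up 0.69 of the range of the young group, above Dixon's critical value of 0.625 for 6 samples. Chance gives about 1 in 20 such sets. Young 3 was the highest young library for 9 of the 10 members, all but H2-D1, and its interferon response genes summed to 158 CPM, the highest of the young group.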

How the results depend on the processing

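The members' direction between old anti-miR-mix and old control mice held for all 10 under every alternative except those named below for Tap2, and none called a member except the replicate block with 3 (H2-K1, H2-D1 and B2m). Same-numbered libraries were not paired by the labels, and their deviations correlated with an r of -0.17 to 0.21, above 0.1 in 2, 3 and 1 of 6 pairs, with 2, 4 and 1 libraries most like their own number. With the replicate block, 8 members were called against young mice and 1 (Tap2) by age, 249 of all genes and 4 of the wider list by treatment. The shares of all genes called with this block against young mice and by age are not given here, so the member counts there cannot be set against them.

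Over all genes, the count called by age was 514, and it was 914 with DESeq2, 323 without the low-count filter, 772 with 2 groups only, 302 with old control 5 and 6 merged, 215 with that and the processing group factor, and 134 without processing group 3. By treatment 129 were called, against 267, 55 with 2 groups only, 9 with the processing group factor, 36 merged, 4 merged with the factor, 0 without processing group 3 and 9 without old anti-miR-mix 3 and 4. Against young mice 1196 were called, and 347 and 709 under the last 2 settings, which called 1 and 2 members. By age 1 member (Tap2) was called with DESeq2, 2 groups only, the factor, the factor with merging, and without old anti-miR-mix 3 and 4. The wider list had by age 2 called with DESeq2, the factor or limma, 3 with 2 groups only and 0 without processing group 3. By treatment it had 2 with DESeq2 or limma and 0 with the factor, merging, both, or without processing group 3 or old anti-miR-mix 3 and 4. Against young mice it had 7 with 2 groups only or without old anti-miR-mix 3 and 4, and 4 without processing group 3. For the fits with fewer libraries a lower count follows in part from their size, and for the rest the cause was not tested.

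With each library left out in turn, all genes called ranged from 214 to 746 by age, 24 to 247 by treatment and 897 to 1268 against young mice, members from 0 to 1, 0 to 0 and 2 to 6, and the wider list from 1 to 2, 0 to 2 and 7 to 11. Log2 ratios in the same order were 0.15 to 0.42, 0.23 to 0.49 and 0.49 to 0.78 for Psmb8 to Psmb5, 0.08 to 0.33, 0.35 to 0.60 and 0.58 to 0.77 for Psmb9 to Psmb6 (adjusted p = 0.0455 against young mice without young 3, exact permutation test), and -0.04 to 0.01, 0.06 to 0.14 and 0.04 to 0.12 for Psmb10 to Psmb7.

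The signs that turned belong to values that the test did not call. By age, H2-D1 became 0.0736 with the factor, 0.0906 with factor and merging and 0.11 without processing group 3, Tapbp 0.0311, 0.0415 and 0.0179, and Nlrc5 0.14, 0.24 and 0.17, and 0.0549 merged, while H2-T23 became 0.0146 with factor and merging. With single libraries left out, the age difference ran from -0.086 (without young 1) to 0.0902 (without young 3) for H2-K1, from -0.0271 to 0.15 for B2m and from -0.0689 to 0.0105 for Tapbp in the same order, and from -0.32 (without old control 4) to 0.10 (without young 3) for Nlrc5. By treatment, Tap2 became -0.0012 with factor and merging, -0.006 without processing group 3 and -0.0309 without old anti-miR-mix 3 and 4. Within processing groups, the log2 ratio of Psmb8 to Psmb5 by treatment became -0.0082 and that of Psmb10 to Psmb7 by age 0.0246, and the latter ran from -0.0406 (without old control 6) to 0.0058 (without young 3) with single libraries left out.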
